A study of Mus musculus with 15 samples.

Results

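The 10 vascular endothelial genes described here are Pecam1, Cdh5, Kdr, Tek, Flt1, Vwf, Cldn5, Emcn, Esam and Egfl7. They were chosen by name as genes typical of the cells that line blood vessels, and all 10 were found among the 52526 genes listed for each mouse. The tissue was the left 4th mammary fat pad of female nude mice, which carry the Foxn1nu mutation and lack a normal thymus. Osmotic pumps under the skin gave BDE-47, a brominated flame retardant, to 7 mice at 0.03 mg per kg body weight per day, and gave the vehicle alone (PEG300 with 1% DMSO) to 8 mice. Exposure began after 8 weeks of age and lasted 16 weeks in both groups. Some mice of the study also carried a xenograft in the region, and which of these mice did is not given in the sample labels. Each mouse gave 1 library of RNA 3′ ends, so the comparisons rest on 8 and 7 separate animals.

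Endothelial cells form the inner wall of blood vessels and, in the fat pad of the mammary gland, lie in capillaries around fat cells and milk ducts. They grow and branch when vascular endothelial growth factors bind the receptors encoded by Kdr and Flt1, and their resting state depends on angiopoietins that bind the receptor encoded by Tek. They are held together by adhesion molecules, among them the products of Pecam1, Cdh5, Cldn5 and Esam, and they put Vwf, Emcn and Egfl7 products on their surface, in storage granules or in the matrix around them.

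In the RefSeq annotation of the mouse genome build GRCm38.p6, the genes of the 3 receptors lie at chr5:75932827-75979072 (Kdr), chr5:147561604-147726438 (Flt1) and chr4:94739086-94874976 (Tek). Those of the 4 junction molecules lie at chr11:106654213-106715281 (Pecam1), chr8:104101613-104144504 (Cdh5), chr16:18776847-18778262 (Cldn5) and chr9:37528089-37538319 (Esam). Vwf lies at chr6:125552948-125686679, Emcn at chr3:137341062-137431069 and Egfl7 at chr2:26581083-26592682. A predicted gene overlaps the bounds of each of Cdh5, Kdr, Flt1 and Emcn. Whether the overlap reaches their 3′ ends was not checked, and whether strand was used in counting is not given in the sources used here. It is therefore not known whether the counts of those 4 genes hold reads of the overlapping gene.

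Promoters of 6 of the 10 genes (Kdr, Tek, Flt1, Cldn5, Emcn and Egfl7) were found in the RefSeq table of GRCm38.p6, which holds 250 bases before and 50 bases after a transcript start. Egfl7 had 3 of them, which made 8 promoters in all. The letters GGAAG, a form of the site that transcription factors of the ETS family bind and that many endothelial promoters use, were searched on both strands. Other forms of that site were not searched, so the matches are no full count of such sites. The letters GGAAG or their reverse complement were counted as follows. These letters occurred in 5 of the 8 promoters, with 0 to 4 matches in each, and in 71.4% of all 32817 promoters of this length. The letters CACGTG occurred in 0 of the 8, against 7.15% of all promoters, and GGGCGG in 4 of the 8, against 35.6%. Printed here are the promoters of the 3 genes with the highest mean level among those in the table (Flt1, Egfl7 at its first start, and Kdr), and that of Cldn5, a gene on which the comparison below turns. Capitals mark GGAAG or its reverse complement, each sequence runs 5′ to 3′ along the gene's strand, and Flt1 held 3 matches, Egfl7 4, Kdr 1 and Cldn5 0.
Flt1, chr5:147725962-147726261, minus strand: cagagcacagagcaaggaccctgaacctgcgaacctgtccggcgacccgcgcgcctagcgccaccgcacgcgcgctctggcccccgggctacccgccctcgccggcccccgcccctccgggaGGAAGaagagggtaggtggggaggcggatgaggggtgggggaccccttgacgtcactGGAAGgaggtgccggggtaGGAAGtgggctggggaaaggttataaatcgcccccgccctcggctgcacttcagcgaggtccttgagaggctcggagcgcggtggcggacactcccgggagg
Egfl7, chr2:26580833-26581132, plus strand: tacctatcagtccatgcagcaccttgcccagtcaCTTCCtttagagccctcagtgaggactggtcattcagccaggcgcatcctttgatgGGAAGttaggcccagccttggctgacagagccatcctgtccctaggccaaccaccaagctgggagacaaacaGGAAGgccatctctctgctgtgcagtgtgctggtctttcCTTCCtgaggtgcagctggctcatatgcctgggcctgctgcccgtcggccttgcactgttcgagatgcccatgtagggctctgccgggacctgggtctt
Kdr, chr5:75978406-75978705, minus strand: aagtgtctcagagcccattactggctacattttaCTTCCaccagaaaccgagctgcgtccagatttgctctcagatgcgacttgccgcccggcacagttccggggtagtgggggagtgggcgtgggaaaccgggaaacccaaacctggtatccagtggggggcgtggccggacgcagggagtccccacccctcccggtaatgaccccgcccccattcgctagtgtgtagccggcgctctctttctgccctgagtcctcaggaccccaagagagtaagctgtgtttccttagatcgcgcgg
Cldn5, chr16:18776597-18776896, plus strand: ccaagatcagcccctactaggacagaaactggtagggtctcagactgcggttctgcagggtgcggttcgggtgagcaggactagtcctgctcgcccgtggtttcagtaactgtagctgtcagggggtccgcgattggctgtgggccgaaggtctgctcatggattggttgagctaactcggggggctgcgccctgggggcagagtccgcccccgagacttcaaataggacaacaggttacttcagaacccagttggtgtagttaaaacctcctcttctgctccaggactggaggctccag

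Egfl7 also hosts the endothelial microRNA miR-126a, whose mature 3p strand lies at chr2:26591402-26591423 on the plus strand, within the bounds of the gene. Its sequence from RefSeq is shown because it shares the Egfl7 locus, with the seed (bases 2 to 8) in capitals.
mmu-miR-126a-3p: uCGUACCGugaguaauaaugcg
The row of the precursor, Mir126a, was listed at 0 in all 15 mice, and the library method reads polyadenylated 3′ ends, so these data hold no measurement of the mature microRNA.

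Levels were given as log2(CPM), CPM being the count of mapped reads of a gene scaled to a depth of 1 M reads, and a gene below 1 CPM was set to 0. Depth was 10.06 to 19.58 M mapped reads per mouse, with a median of 15.2 M in vehicle mice and 14.4 M in BDE-47 mice, so 1 CPM stood for 10.06 to 19.58 reads. At least 7475 genes were above this floor in each vehicle mouse and at least 6932 in each BDE-47 mouse. Of the 52526 genes, 9511 were above the floor in at least 7 mice and were tested, all 10 endothelial genes among them. The tested genes together were listed at 0 in 20.7% of their values.

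Of the 15 mice, 3 stood apart in genes of other tissues. In vehicle mice 6 and 8, all 8 B cell genes examined were above the floor, with summed levels of 650 and 722 CPM, against 0 to 9.87 CPM in the other 13 mice. Genes of high endothelial venules, the vessels through which lymphocytes enter lymph nodes, summed to 766 and 1100 CPM in the same mice and to no more than 4.94 CPM elsewhere. White adipocyte genes summed to 57.3 and 137 CPM in them and to 626 to 4520 CPM in the others. In BDE-47 mouse 6, 5 skeletal muscle genes summed to 73300 CPM, against 34.1 to 132 CPM in every other mouse. Values without these mice are given beside those with them wherever a difference turned direction or moved by much, and their part in the results was not tested beyond that.

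The 10 genes were present in the tissue of every mouse, though not all of them in each. In vehicle mice 6 to 10 of the 10 were above the floor (median 8), and in BDE-47 mice 6 to 10 (median 10). Their summed level was 183 to 682 CPM in vehicle mice, with a median of 403 CPM, and 130 to 478 CPM in BDE-47 mice, with a median of 287 CPM. The ranges of the 2 groups overlapped over most of their width. The lowest sums of each group were those of vehicle mouse 6 and BDE-47 mouse 6, both among the mice that stood apart. Because the tissue was measured in bulk, fewer endothelial cells and less RNA per endothelial cell cannot be told apart.

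**Figure D1:**
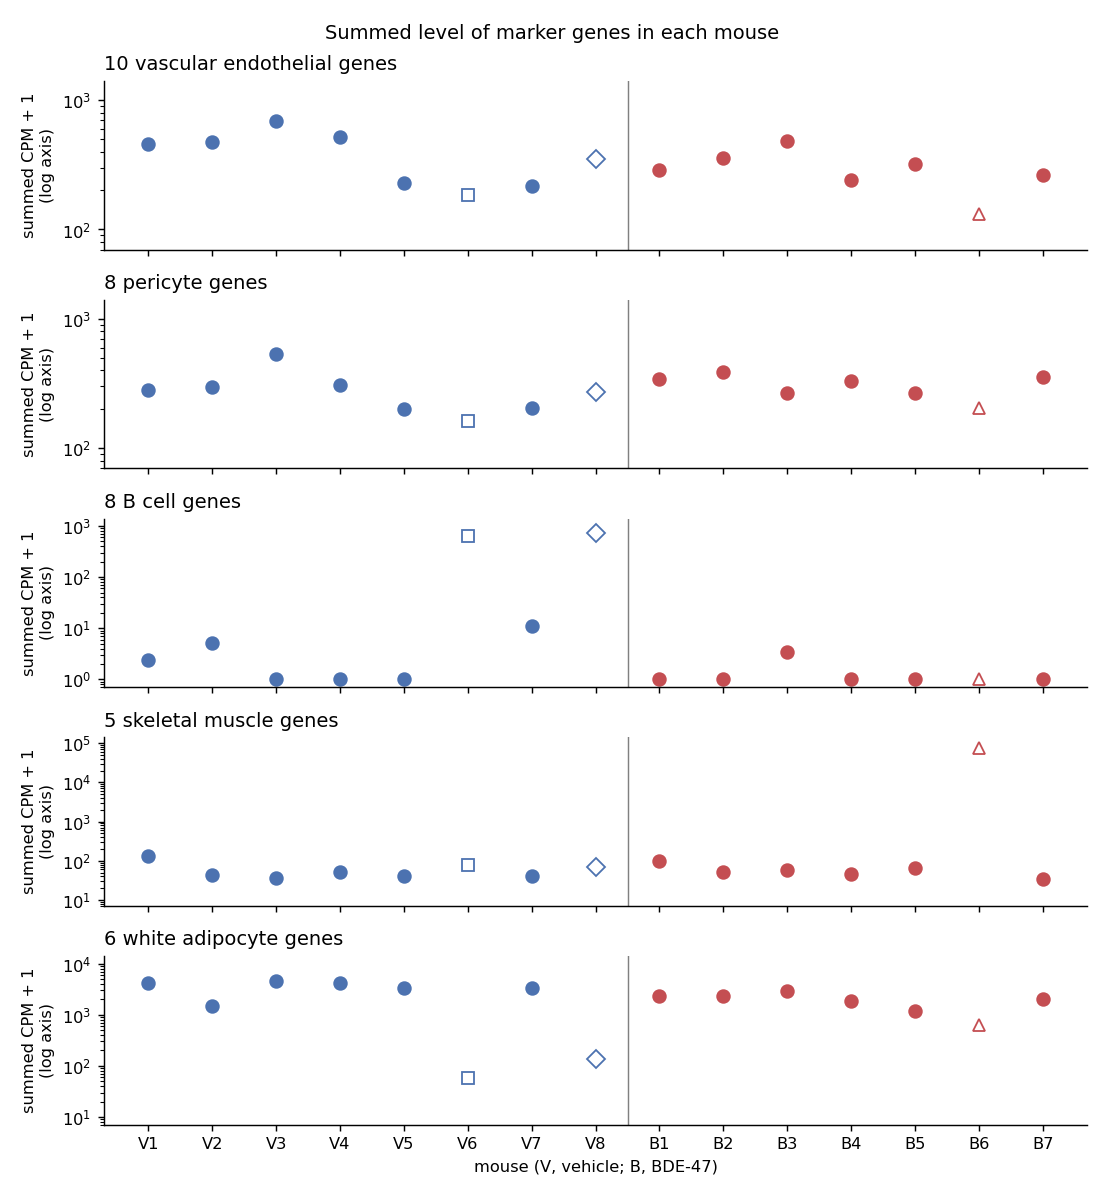
Summed CPM + 1 (log axis) of 10 vascular endothelial genes, 8 pericyte genes, 8 B cell genes, 5 skeletal muscle genes and 6 white adipocyte genes in each of 8 vehicle mice (V, blue) and 7 BDE-47 mice (B, red), 1 point per mouse. Open symbols mark vehicle mice 6 and 8, with 650 and 722 CPM of B cell genes, and BDE-47 mouse 6, with 73300 CPM of muscle genes, while the endothelial sum lies between 130 and 682 CPM in all mice.

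Since each transcript gives a single 3′-end fragment, CPM can be compared between genes without dividing by length. Ordered by mean log2(CPM) over the 15 mice, the genes were Pecam1 (5.37), Esam (5.31), Flt1 (5.23), Egfl7 (5.03), Kdr (4.66), Cdh5 (3.87), Cldn5 (3.75), Vwf (2.69), Emcn (2.58) and Tek (1.52). Every step between neighbours in this order, 0.06 to 1.06, was smaller than the SD of that difference over the mice, 1.93 to 2.77, so no neighbours differed beyond their spread. Values listed at 0 enter these means, and Pecam1 was lower than Esam in 12 of the 15 mice, Egfl7 lower than Kdr in 10. Pecam1 stood at the percentile 83.9 of the mean levels of all tested genes, and Tek at 7.4. The median SD over mice was 1.82 for the 10 genes and also 1.82 for all tested genes.

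Many of these genes were listed at 0 in mice where the same gene would have been expected to give many reads. Of 150 values, 22 were at 0 (14.7%), which made 17.5% of the 80 vehicle values and 11.4% of the 70 BDE-47 values. Over all tested genes the shares were 21.9% in vehicle and 19.3% in BDE-47 mice. Only Pecam1, Flt1 and Egfl7 were above the floor in all 15 mice. At the gene's own median level in the remaining mice, the 22 values would have stood for 62 to 819 reads, with a median of 258 reads. Kdr was at 0 in vehicle mouse 2 and in BDE-47 mouse 2, where its usual level would have given 697 and 694 reads, and Esam was at 0 in vehicle mouse 8, where it would have given 819. For the 7 genes with such values no mean and SD of a group is given.

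Compared between groups, 0 of the 10 genes differed by limma's test (adjusted p over the 9511 tested genes), the background being 0.0% of tested genes. The lowest limma adjusted p was 0.982, both for these genes and for all genes. By unadjusted limma p, 443 of all tested genes were under 0.05, as were 420 by the exact permutation test. On the unadjusted scale, Pecam1 and Cldn5 were lower with BDE-47 (2 of 10 genes, against a background of 2.72% of tested genes lower), and 0 of 10 were higher (background 1.93%). In mean log2(CPM), 2 of 10 genes were more than 2-fold lower (Pecam1 and Cldn5, background 13.2%) and 1 of 10 was more than 2-fold higher (Vwf, background 13.0%). No gene had groups that did not overlap (0 of 10, background 0.0105%). In all, 5 genes had a higher and 5 a lower mean with BDE-47, and the median difference was -0.01, against -0.02 over all tested genes.

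**Figure D2:**
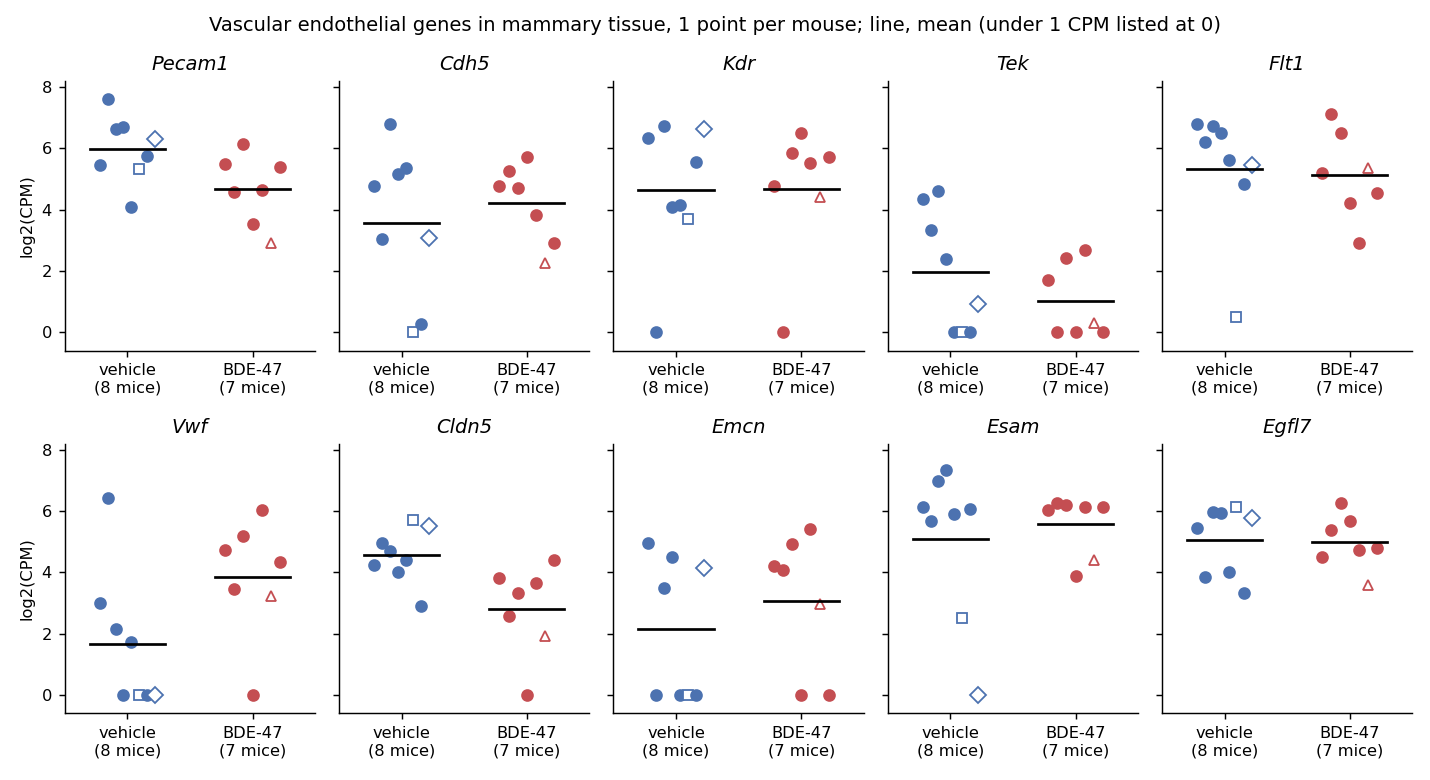
log2(CPM) of each vascular endothelial gene in 8 vehicle mice (blue) and 7 BDE-47 mice (red), 1 point per mouse, with black lines at the group means; values under 1 CPM are listed at 0. Open squares and diamonds are vehicle mice 6 and 8, and open triangles are BDE-47 mouse 6; Cldn5 lies under the vehicle median of 4.55 in all 7 BDE-47 mice, while the groups overlap for every gene.

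Among the junction molecules, Cldn5 and Pecam1 had lower means with BDE-47. Cldn5 encodes claudin 5, a tight junction protein of endothelium. Its log2(CPM) in vehicle mice 1 to 8 was 4.25, 4.95, 4.70, 4.01, 4.40, 5.71, 2.91 and 5.53. In BDE-47 mice 1 to 7 it was 3.82, 2.58, 3.34, 0 (listed), 3.65, 1.94 and 4.40. The BDE-47 median was 3.34. All 7 BDE-47 mice lay under the vehicle median of 4.55, and 5 of 8 vehicle mice lay above the highest BDE-47 mouse. Vehicle mice 1, 4 and 7 were within the BDE-47 range, and vehicle mouse 5 was barely above it (21.2 against 21.0 CPM). The mean was lower by 3.34-fold (difference -1.74 log2 units, SE 0.86, 95% interval -3.47 to -0.01; limma adjusted p = 0.982). The exact permutation test, two-sided over 6435 arrangements, gave p = 0.00979 for Cldn5 before adjustment and 0.998 after adjustment over all tested genes.

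The highest Cldn5 values were those of vehicle mice 6 and 8, the mice with B cell genes. Without both, the difference was -1.39 (exact permutation p = 0.0495), and without BDE-47 mouse 6 as well it was -1.24 (exact permutation p = 0.0779, n = 6 and 6). Leaving out BDE-47 mouse 4, the mouse listed at 0, gave -1.27. The sign was the same in each case.

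Pecam1, which encodes CD31, an adhesion molecule of endothelial junctions that platelets and leukocytes also carry, was above the floor in every mouse. In vehicle mice its log2(CPM) was 5.45, 7.63, 6.65, 6.69, 4.10, 5.32, 5.76 and 6.32 (mice 1 to 8), a mean of 5.99 ± 1.08 (SD, n = 8). In BDE-47 mice it was 5.48, 4.59, 6.16, 3.53, 4.63, 2.90 and 5.39 (mice 1 to 7), a mean of 4.67 ± 1.14 (SD, n = 7). Of the BDE-47 mice, 6 of 7 lay under the vehicle median of 6.04, and 4 of 8 vehicle mice lay above the highest BDE-47 mouse, yet the groups overlapped from 4.10 to 6.16. The difference was -1.32 log2 units (SE 0.60, 95% interval -2.54 to -0.10), which is 2.5-fold lower, with limma adjusted p = 0.982. The exact permutation test gave p = 0.0407 before and 0.998 after adjustment.

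BDE-47 mouse 6, with the muscle genes, had the lowest Pecam1 value. Without it the difference was -1.03 (exact permutation p = 0.0882), without vehicle mice 6 and 8 it was -1.38 (exact permutation p = 0.0647), and without all 3 it was -1.08 (exact permutation p = 0.115). Macrophage genes, which mark another cell type that can carry CD31, summed to 109 to 1920 CPM in vehicle mice and 110 to 499 CPM in BDE-47 mice. The 2 highest of these sums, 1350 and 1920 CPM, were in vehicle mice 6 and 8. Their part in the Pecam1 result was not tested.

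Cdh5 and Esam, the other junction genes, had means that were not lower. Cdh5, which encodes VE-cadherin of the adherens junction, ranged from 0 to 6.81 in vehicle mice (median 3.92, 7 of 8 above the floor) and from 2.25 to 5.71 in BDE-47 mice (median 4.71, 7 of 7). The groups overlapped widely, with a difference of 0.64 (95% interval -1.28 to 2.57; limma adjusted p = 0.994), which became -0.03 without vehicle mice 6 and 8. Esam, which encodes an adhesion molecule at endothelial tight junctions, ranged from 0 to 7.33 in vehicle mice (median 6.00) and from 3.89 to 6.28 in BDE-47 mice (median 6.12). Of the BDE-47 mice, 5 of 7 lay between 6.04 and 6.28. Vehicle mice 6 and 8, which stood apart, were at 2.52 and 0, and the other vehicle mice lay between 5.67 and 7.33. The difference for Esam was 0.50 (95% interval -1.05 to 2.06; limma adjusted p = 0.994), and it turned to -0.22 without vehicle mouse 8, which was listed at 0, so no direction could be given.

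The receptor genes did not share a direction. Kdr, which encodes VEGFR2, the main signalling receptor for VEGF-A, ranged from 0 to 6.73 in vehicle mice (median 4.85) and from 0 to 6.51 in BDE-47 mice (median 5.52). Each group held 1 mouse at 0, and the other values were 3.69 to 6.73 in vehicle mice and 4.40 to 6.51 in BDE-47 mice, a narrower range within the first. The difference was 0.03 (SE 0.88, 95% interval -1.75 to 1.82; limma adjusted p = 1.0), an interval that includes changes of more than 2-fold either way. Leaving out vehicle mouse 2 gave -0.63 and leaving out BDE-47 mouse 2 gave 0.81, these being the mice at 0.

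Flt1 encodes VEGFR1, which binds VEGF-A tightly and, in a soluble form, holds it back from VEGFR2. Its values were 0.50 to 6.79 in vehicle mice (mean 5.33 ± 2.07 SD, n = 8) and 2.91 to 7.12 in BDE-47 mice (mean 5.12 ± 1.41 SD, n = 7). Vehicle mouse 6 alone lay at 0.50, and the remaining 7 vehicle mice lay at 4.83 or above. With all mice the difference was -0.21 (95% interval -1.71 to 1.29; limma adjusted p = 0.994). It was -0.90 without vehicle mouse 6, -1.03 without the 3 mice that stood apart (exact permutation p = 0.173) and 0.16 without BDE-47 mouse 5.

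Tek encodes TIE2, the receptor for angiopoietins, and was the lowest of the 10 genes. In vehicle mice it ranged from 0 to 4.60, with a median of 1.67 and 5 of 8 mice above the floor. In BDE-47 mice it ranged from 0 to 2.68, with a median of 0.29 and 4 of 7 above the floor. The 3 highest values were all in vehicle mice, and the rest of both groups overlapped. The difference was -0.94 (95% interval -2.75 to 0.87; limma adjusted p = 0.982; exact permutation p = 0.293 before adjustment). Without vehicle mice 6 and 8 it was -1.43 (exact permutation p = 0.167).

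Vwf encodes von Willebrand factor, a blood glycoprotein that endothelial cells store in granules and that binds platelets at injured vessels. Its log2(CPM) in vehicle mice 1 to 8 was 2.99, 6.44, 2.16, 0, 1.74, 0, 0 and 0. In BDE-47 mice 1 to 7 it was 4.72, 3.45, 5.19, 0, 6.04, 3.22 and 4.34. The floor was passed in 4 of 8 mice given vehicle and in 6 of 7 given BDE-47, and 6 of 7 BDE-47 mice lay above the vehicle median of 0.87 (BDE-47 median 4.34), but the highest value of all was that of vehicle mouse 2. The difference, 2.18 log2 units higher with BDE-47 (4.54-fold; SE 1.13, 95% interval -0.09 to 4.46), did not pass limma's test (adjusted p = 0.982; exact permutation p = 0.0726 before adjustment).

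Over mice above the floor alone, the Vwf difference was 1.16. From group means of linear CPM, which keep the values at 0, the log2 ratio was 0.92. Without vehicle mice 6 and 8, both at 0, the difference in mean log2(CPM) was 1.63 (exact permutation p = 0.204), against 2.18 with all mice. Platelets also contain von Willebrand factor. Of 6 platelet genes, 2 were tested, their values were at 0 in 73.3% of cases, and their sum was 1.67 to 79.6 CPM in vehicle mice and 0 to 99.5 CPM in BDE-47 mice. Their part in the Vwf values was not tested.

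Emcn encodes endomucin, a mucin-like surface protein of capillary and venous endothelium. With vehicle, 4 of 8 mice passed the floor, at 3.49 to 4.97, and with BDE-47 5 of 7 did, at 2.96 to 5.41. The group medians over all mice were 1.74 and 4.07. The means of the mice above the floor differed by 0.04. With the values at 0 the difference was 0.94 (95% interval -1.38 to 3.27; limma adjusted p = 0.991).

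Egfl7 encodes a secreted protein of the matrix around endothelial cells and had the smallest spread of the 10 genes over the 15 mice (SD 0.98). It ranged from 3.33 to 6.15 in vehicle mice (mean 5.06 ± 1.13 SD, n = 8) and from 3.60 to 6.27 in BDE-47 mice (mean 5.00 ± 0.87 SD, n = 7). The groups covered almost the same range. The difference was -0.06 (SE 0.63, 95% interval -1.33 to 1.20; limma adjusted p = 1.0), and without the 3 mice that stood apart it was 0.47.

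**Figure D3:**
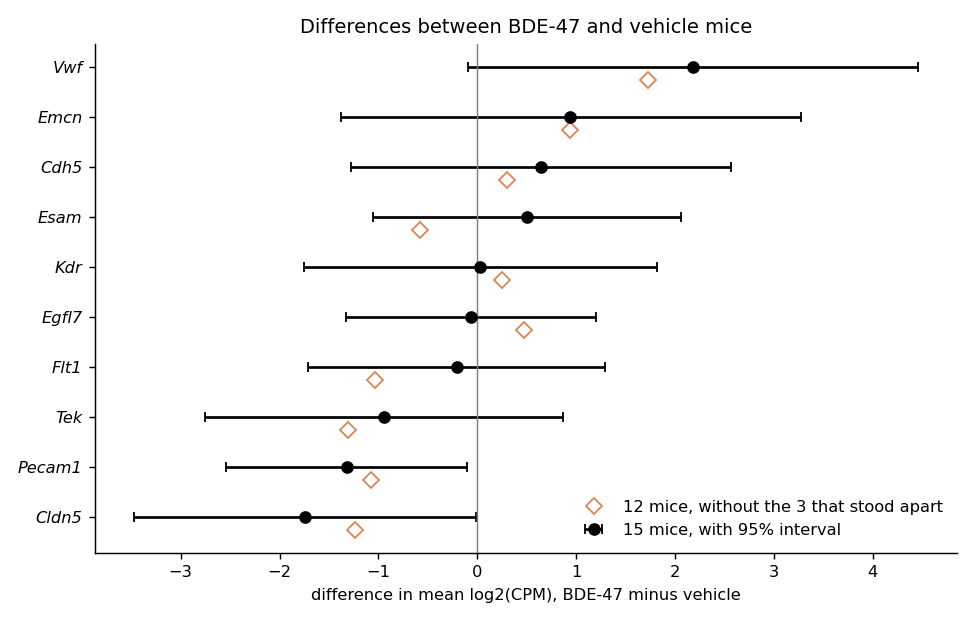
Difference in mean log2(CPM), BDE-47 minus vehicle, for each vascular endothelial gene: black points with limma's 95% interval over 15 mice, and open diamonds over the 12 mice left without vehicle mice 6 and 8 and BDE-47 mouse 6. The intervals of Cldn5 (-3.47 to -0.01) and Pecam1 (-2.54 to -0.10) end just under 0, and those of the other 8 genes include 0.

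Over the 15 mice the 10 genes varied together only in part. Of 45 pairs, 34 had a Pearson's r above 0, with a median r of 0.18 (Spearman's rho 0.24), while the median r over all pairs of tested genes was 0.03. Over the 12 mice without those that stood apart, the medians were 0.28 and 0.04. These values describe 15 libraries that also differ in the number of genes above the floor, and they carry no p. The highest pairs were Pecam1 with Cldn5 (r = 0.65), Cdh5 with Flt1 (0.62), Pecam1 with Tek (0.58) and Tek with Emcn (0.53), and the lowest was Kdr with Vwf (-0.31). Pecam1 and Cldn5, the pair with the highest r, were also the 2 genes more than 2-fold lower in BDE-47 mice. Their r was taken over both groups together, so that difference itself raises it, and the 2 observations are not separate. Against the mean z-score of the other 9 genes, Tek had r = 0.80 and Kdr -0.02.

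**Figure D4:**
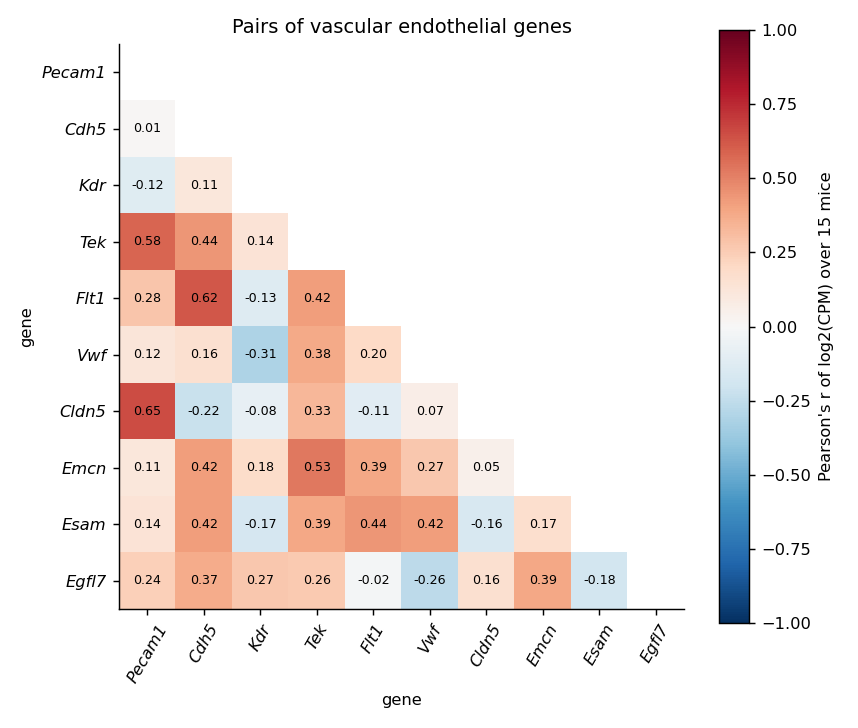
Pearson's r of log2(CPM) over 15 mice for the 45 pairs of vascular endothelial genes, red above 0 and blue under 0. Pecam1 with Cldn5 (0.65) and Cdh5 with Flt1 (0.62) are highest, Kdr with Vwf (-0.31) is lowest, and 34 pairs are above 0.

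The mean z-score of the 10 genes followed some other measures of the samples across the 15 mice, again as a description. Against the mean z-scores of the tested genes of other lists, its Pearson's r was 0.84 (Spearman's rho 0.79) for other endothelial surface and effector genes. For pericyte genes it was 0.79 (rho 0.82) and for smooth muscle genes 0.76 (rho 0.64). It was 0.60 for red cell genes, 0.53 for white adipocyte genes and 0.07 for macrophage genes. It was also 0.58 with the number of genes above the floor and -0.35 with depth. Over the 12 mice without those that stood apart, r was 0.70 with the number of genes above the floor. It was then 0.85 for other endothelial surface and effector genes, 0.72 for pericyte and 0.66 for smooth muscle genes. Lymphatic endothelium genes went from 0.24 to 0.69 and luminal epithelium genes from 0.38 to -0.49. The tested genes outside the 10 whose levels followed the mean z-score of the 10 most closely were Stk38 (r = 0.86), Ghdc (0.85), Gpr153 (0.83), Gdf10 (0.82) and B3galt2 (0.82). Of these, Ghdc and Gpr153 were above the floor in only 9 and 8 mice.

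Other genes of the same pathways and vessels were read from lists chosen by function, and 0 genes of any list passed limma's adjusted p. Of 10 ligands that act on endothelium, 8 were tested, with 2 higher and 6 lower and a median difference of -0.35. Vegfa, the ligand of the Kdr and Flt1 products, had the highest difference, with 0 to 5.66 in vehicle mice and 4.56 to 6.81 in BDE-47 mice (difference 1.91; limma adjusted p = 0.982; exact permutation p = 0.0614 before adjustment). Without vehicle mice 6 and 8 the Vegfa difference was 0.80 (exact permutation p = 0.2). Angpt2, a ligand of TIE2, had the lowest difference of the ligands at -0.76.

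Of 13 other receptors, 6 were higher and 7 lower (median -0.11), but without the 3 mice that stood apart 7 were higher and 6 lower (median 0.08). With all mice they ran from Nrp1, a VEGF co-receptor, at 0.67 to Tie1, the partner of TIE2, at -1.52. Tie1 was -2.33 without the 3 mice that stood apart (exact permutation p = 0.0108 before adjustment). Of 14 endothelial transcription factors, 10 were tested, 4 higher and 6 lower, with a median of -0.54 that became 0.10 without the 3 mice. Hey1, a Notch target, was highest at 1.24 and Klf2, which responds to blood flow, lowest at -0.90. Without vehicle mice 6 and 8 they were 0.42 and -0.27.

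Of the 18 other surface and effector genes, 16 were tested, 7 higher and 9 lower (median -0.26). Nos3, the endothelial nitric oxide synthase, was highest at 1.24, and 0.72 without vehicle mice 6 and 8. Thbd, which encodes thrombomodulin, an anticoagulant receptor of endothelium, was lowest at -2.26, with values above 0 in 7 of 8 mice given vehicle and in 4 of 7 given BDE-47 (limma adjusted p = 0.982; exact permutation p = 0.0315 before adjustment). It was -2.97 without the 3 mice that stood apart (exact permutation p = 0.00433 before adjustment). Across the ligand, receptor, transcription factor and surface gene lists, Thbd and Vegfa were the only genes under 0.05 by unadjusted limma p with all 15 mice, 2 of 47 tested (4.26%), against 4.66% of all tested genes.

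Genes listed for particular vessels gave medians on both sides of 0. Of 10 genes listed for fat capillaries, 8 were higher and 2 lower (median 0.64), but without the 3 mice that stood apart 6 were higher and 4 lower (median 0.12). Gpihbp1, which holds lipoprotein lipase on capillary walls, was highest at 1.27 and Aqp7, a glycerol channel, lowest at -0.87. Without vehicle mice 6 and 8 they were 0.56 and -1.68. The sum of the fat capillary list was 361 and 1010 CPM in vehicle mice 6 and 8, where white adipocyte genes were lowest. It was 2090 to 18200 CPM in the other mice. The part of fat cells in these values was not tested. Of 6 tested arterial and venous genes, 1 was higher and 5 lower (median -0.78), from Ephb4, a marker of veins, at 0.11 to Gja4, an arterial connexin, at -1.51. Without the 3 mice that stood apart these were 0.76 and -0.72. All 3 tested adhesion genes of activated endothelium were lower (median -1.08, and -0.73 without the 3 mice), from Selp at -0.95 to Vcam1 at -1.67. Without vehicle mice 6 and 8, Selp was -1.70 and Vcam1 -0.59. Their summed level, with the fourth gene of that list, was 22.9 to 299 CPM in vehicle mice and 0 to 39.3 CPM in BDE-47 mice, and its 2 highest values, 172 and 299 CPM, were in vehicle mice 6 and 8.

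Of 7 genes of lymphatic endothelium, 4 were tested and all 4 were lower (median -0.39), but without the 3 mice that stood apart 2 were higher and 2 lower. Lyve1, a hyaluronan receptor of lymphatic vessels and some macrophages, was lowest at -2.82 (limma adjusted p = 0.982; exact permutation p = 0.0507 before adjustment), and -1.74 without vehicle mice 6 and 8. Flt4, the receptor for lymphatic growth factors, was at -0.11 and turned to 1.09 without the 3 mice. Of 6 tested pericyte genes, 3 were higher and 3 lower (median -0.07, and 0.04 without the 3 mice), from Cspg4 at 1.17 to Abcc9 at -0.68. Cspg4 was -0.07 without vehicle mice 6 and 8, and Abcc9 was -1.11 without BDE-47 mouse 6. Of 5 smooth muscle genes, 1 was higher and 4 lower (median -0.59), from Des, also a muscle gene, at 0.51 to Myh11 at -1.28. Des was -0.78 without BDE-47 mouse 6, Myh11 was -2.01 without vehicle mice 6 and 8, and all 5 were lower without the 3 mice. Whether the smooth muscle genes were read from vessels or from other contractile cells of the gland was not tested. Over all 9511 tested genes, 4671 were higher and 4840 lower.

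**Figure D5:**
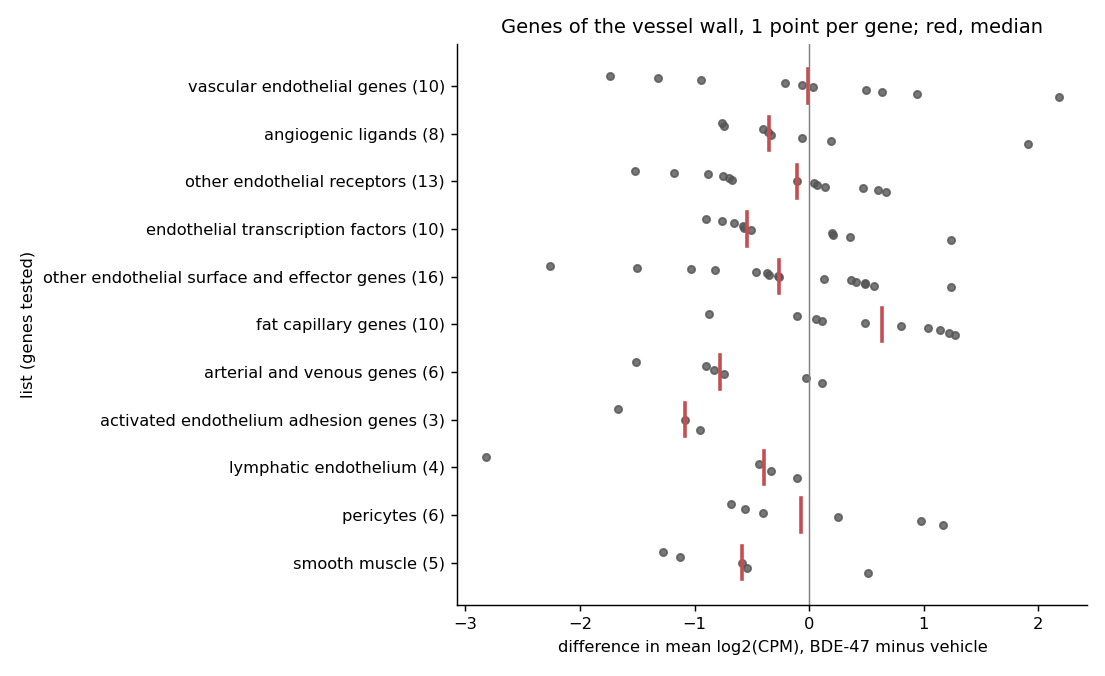
Difference in mean log2(CPM), BDE-47 minus vehicle, for the tested genes of each list, 1 point per gene, with a red bar at the list's median; the number tested stands beside each list. The medians run from -1.08 (adhesion genes of activated endothelium) to 0.64 (fat capillary genes), with -0.01 for the 10 vascular endothelial genes.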

How the data were processed

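RNA was measured in mammary tissue of 8 vehicle and 7 BDE-47 mice with QuantSeq 3′ FWD libraries. The authors mapped reads to the RefSeq mouse genome (GRCm38 and STAR 2.5.3a are named in the submitters' processing notes), normalized them to CPM (counts scaled to 1 M mapped reads), and deposited log2(CPM) values with genes under 1 CPM at 0. The comparisons had been planned for CPM, and the log2 values were used as given. Of 52636 entries per mouse, 110 repeats of a gene name were dropped, the one with the highest mean being kept. Depth was recovered from the spacing of low CPM values, which were whole reads within 0.1 in 100% of cases. The members and lists were chosen with earlier results of these data known. Genes above the floor in at least 7 mice entered limma 3.58.1 in R 4.3.3 (moderated by empirical Bayes, prior variance following the mean level), with Benjamini-Hochberg adjustment over all of them. Single genes were also compared with an exact permutation test, two-sided, whose smallest possible p is 0.000155. Folds are on the deposited log2 scale, where the values listed at 0 can make a difference smaller or larger. Tek was at -0.94 with them and -1.35 over mice above the floor, and Vwf was at 2.18 and 1.16. The presence of a xenograft, a covariate in the study's methods, is not given per mouse in the labels and was not used. All 10 genes are named, and from each other list the largest rise and the largest fall among the genes tested. The 5 genes of most similar pattern were ranked by Pearson's r over 15 mice with the mean z-score of the 10 genes. Platelets, macrophages and other cell types were followed by summed CPM of short marker lists. The alternatives tried were pseudocounts of 1 and 0.1, other filters, size factors, linear means, array weights, a replicate block and mice left out. Leaving out the 3 mice together and the mice above the floor alone were added after seeing the data. Figures and other steps used Python 3.11.15, numpy 2.4.6, scipy 1.17.1, pandas 2.3.3 and matplotlib 3.10.9. Tests were checked on simulated data.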

Additional observations from a re-analysis of the deposited data

Results flagged for a closer look

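Of 24 sets of values checked (each of the 10 genes, and 2 sums of marker genes, in each group), 6 held a mouse farther from the nearest of the others than Dixon's 95% critical value allows, and chance alone gives about 1 in 20. Kdr in vehicle mouse 2 was listed at 0, while the nearest vehicle mouse was at 3.69 log2(CPM). Kdr in BDE-47 mouse 2 was also listed at 0, with the nearest at 4.40. Flt1 in vehicle mouse 6 was at 0.50, with the nearest at 4.83. Vwf in vehicle mouse 2 was at 6.44, above the nearest at 2.99. The summed skeletal muscle genes were at 132 CPM in vehicle mouse 1, with the nearest at 78.0 CPM, and at 73316 CPM in BDE-47 mouse 6, with the nearest at 95.2 CPM.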

How the results depend on the processing

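None of the 10 genes passed limma's adjusted p in any fit, and over all tested genes the count was 0 except without the 3 mice that stood apart (chosen after seeing the data), where it was 2 (Wfdc18 and Chchd2). Leaving out each mouse in turn gave 0 to 0 called among the 10 genes and 0 to 0 among all. Differences so obtained were -1.59 to -1.03 for Pecam1, 0.14 to 1.11 for Cdh5, -0.63 to 0.81 for Kdr, -1.22 to -0.56 for Tek, -0.90 to 0.16 for Flt1, 1.82 to 2.87 for Vwf, -2.0 to -1.27 for Cldn5, 0.55 to 1.46 for Emcn, -0.22 to 0.82 for Esam and -0.31 to 0.17 for Egfl7. Pecam1, Tek, Vwf, Cldn5 and Emcn kept their direction in all alternatives run. Vwf was 3.37 with a pseudocount of 0.1 and 0.92 from linear means, and array weights brought Pecam1 to -0.70. Kdr turned to -0.03 with a pseudocount of 0.1, -0.02 with array weights and -0.17 from linear means. Egfl7 turned to 0.03 with size factors, 0.20 with array weights, 0.24 without vehicle mice 6 and 8 and 0.47 without the 3 mice. Esam turned to -0.77 and -0.58 under these last 2, to -0.27 from linear means and to -0.22 over mice above the floor. Cdh5 turned to -0.03 without vehicle mice 6 and 8 and to -0.26 from linear means. With the replicate block, 0 of the 10 genes and 0 genes in all passed, Esam turned to -0.22 and Egfl7 to 0.04. Vehicle mouse 8 has no BDE-47 mouse of the same number, so the block gave the same differences as leaving that mouse out. Same-numbered mice did not deviate together (r from -0.018 to 0.053), although a low r cannot exclude that the number pairs mice. The count of unadjusted limma p under 0.05, 2 with all mice (Pecam1 and Cldn5), was 1 with a pseudocount of 0.1, the block or without vehicle mice 6 and 8 (Pecam1 each time), 1 with array weights (Vwf, not Pecam1 or Cldn5), 2 with size factors (Pecam1 and Vwf), 0 without the 3 mice, and 0 to 2 with each mouse left out. Without vehicle mouse 2 or BDE-47 mouse 4 the 1 gene was Vwf. A filter on all 15 mice left 3 of the 10 genes. The causes of the other changes were not tested. Of 15 values each, 5 were listed at 0 for Vwf and 6 each for Tek and Emcn.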
